A study of Mus musculus with 180 samples.

Results

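The inflammatory CC chemokines described here were 10 genes: the ligands Ccl2, Ccl3, Ccl4, Ccl5, Ccl6, Ccl7, Ccl8, Ccl9 and Ccl12, and the receptor Ccr2. They were taken by symbol from the authors' table of all libraries, which held 13820 genes, and all 10 were present. RNA was measured by 3′ tag sequencing in 15 tissues of 12 female mice aged 6 weeks, with 1 library per tissue and mouse (180 libraries). The TNFKO LPS group was 4 B6.129S-Tnftm1Gkl/J mice, which carry a targeted Tnf allele, given 5 mg/kg lipopolysaccharide (LPS), a bacterial cell wall component. The LPS group was 4 C57BL/6J mice given the same dose, and the PBS group was 4 C57BL/6J mice given PBS. All tissues were collected at 12 hours, after perfusion, which washes blood from the vessels. There were no TNF-deficient mice without LPS, so an effect of the allele or the strain and an effect on the response to LPS cannot be told apart.

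CC chemokines are small secreted proteins that bind to matrix and draw leukocytes up a gradient through G protein-coupled receptors. Ccl2, Ccl7 and Ccl12 are ligands of Ccr2, which classical monocytes need to leave the bone marrow and enter inflamed tissue. Ccl3, Ccl4 and Ccl5 draw monocytes, T cells and natural killer cells, and Ccl6 and Ccl9 are Ccr1 ligands that myeloid cells of the mouse make without stimulation.

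The 9 ligand genes lie in 2 neighbourhoods of mouse chromosome 11 (mm10, GENCODE M21). Ccl2 (82035571 to 82037453), Ccl7 (82045712 to 82047525), Ccl12 (82101845 to 82103400) and Ccl8 (82115185 to 82116799) form the first. Ccl5 (83525778 to 83530518), Ccl9 (83572919 to 83578636), Ccl6 (83587882 to 83593087), Ccl3 (83647844 to 83649355) and Ccl4 (83662584 to 83664683) form the second. Ccr2 lies on chromosome 9 (124101950 to 124113557). Ccl2 and Ccl6 each overlap 1 annotated gene on the other strand, and the sources used here do not state whether counting used strand.

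RefSeq sequences upstream of the start were given for 6 of the 10 genes. The 250 bases before the start are shown for the neighbours Ccl12 and Ccl8, for Ccl3, which had the largest change, and for the neighbours Ccl9 and Ccl6, whose changes ran in both directions. They are from GRCm38.p6, read 5′ to 3′ on the strand of the gene. Capitals mark matches on either strand to TATAAA, to TGANTCA, to the interferon response motif (GAAA, 2 bases of any kind, GAAA) or to the NF-kB consensus. TGANTCA, with any base in the middle, is a loose form of the AP-1 motif.
Ccl12 (chr11:82101595-82101844, plus strand): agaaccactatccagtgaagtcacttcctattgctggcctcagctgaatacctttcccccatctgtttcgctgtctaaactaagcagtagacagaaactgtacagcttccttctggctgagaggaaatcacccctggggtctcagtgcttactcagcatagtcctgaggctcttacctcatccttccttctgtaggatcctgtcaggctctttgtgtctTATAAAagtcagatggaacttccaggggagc
Ccl8 (chr11:82114935-82115184, plus strand): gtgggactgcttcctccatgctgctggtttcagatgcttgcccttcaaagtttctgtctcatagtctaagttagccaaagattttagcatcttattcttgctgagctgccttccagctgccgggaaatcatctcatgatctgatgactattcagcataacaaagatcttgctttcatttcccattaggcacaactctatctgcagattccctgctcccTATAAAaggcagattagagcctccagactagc
Ccl3 (chr11:83649379-83649628, minus strand): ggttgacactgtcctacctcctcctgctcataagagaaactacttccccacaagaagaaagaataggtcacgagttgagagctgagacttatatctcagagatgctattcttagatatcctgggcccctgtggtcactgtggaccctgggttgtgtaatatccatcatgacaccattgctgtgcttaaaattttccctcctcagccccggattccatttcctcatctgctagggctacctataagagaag
Ccl9 (chr11:83578637-83578886, minus strand): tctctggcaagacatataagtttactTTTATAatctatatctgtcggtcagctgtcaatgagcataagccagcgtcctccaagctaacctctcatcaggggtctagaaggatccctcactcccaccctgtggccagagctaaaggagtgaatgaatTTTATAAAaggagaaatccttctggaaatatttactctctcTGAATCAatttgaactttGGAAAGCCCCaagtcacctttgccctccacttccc
Ccl6 (chr11:83593088-83593337, minus strand): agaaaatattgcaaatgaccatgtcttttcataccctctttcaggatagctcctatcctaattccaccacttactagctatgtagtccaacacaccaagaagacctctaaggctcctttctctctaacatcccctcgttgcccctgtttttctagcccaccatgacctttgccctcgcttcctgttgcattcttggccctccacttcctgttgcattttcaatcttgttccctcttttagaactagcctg

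TATAAA stood 31 to 26 bases before the start of Ccl12 and 32 to 27 bases before that of Ccl8. In Ccl9 it was matched at 3 places, a pair of which overlap. That window also held TGANTCA, in the form TGAATCA (53 to 47 bases before the start), and the NF-kB consensus (35 to 26 bases). The windows of Ccl3 and Ccl6 held none of the letters searched. The Ccl3 window stops at 83649379, short of the GENCODE start of that gene at 83649355, and the bases between were not searched. The other windows shown adjoin the GENCODE start. Of 32851 RefSeq windows of the same length, 12.4% held TATAAA, 7.25% the NF-kB consensus, 6.75% TGANTCA and 2.98% the interferon response motif.

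Total counts per library ranged from 311128 to 2573806, and 1 count stood for a signal of 0.322 to 3.6, where the signal is the authors' scaled value per gene. A tag is counted per transcript end, so levels of different genes do not scale with transcript length. The median sum of 4 tissue markers was highest in the labelled tissue for 15 of 15 tissues. All 12 libraries lay above every library of the other tissues in 12 of them, but only 4 of 12 in spleen, 8 of 12 in lymph node and 11 of 12 in white fat. Mean Tnf signal was higher in TNFKO LPS than in LPS libraries in 15 tissues, without overlap in 12 of them, as in lung (89.6 to 107 against 11.7 to 28.7). The labels do not give the part of Tnf that the allele removes, and tags come from the 3′ end, so this neither checks nor contradicts the genotype. Libraries also held a low signal of genes that belong to other tissues. The 215 genes restricted to 1 tissue stood in the other tissues at medians of 9.52% to 20.4% of their share of all pooled counts. A member group at or below the limit that 9 in 10 of those genes kept to is called at the shared level here. This held for 15 of 150 member and tissue groups in TNFKO LPS mice, 26 of 150 in LPS mice and 83 of 150 in PBS mice. The limit was set for each tissue and group, so it differed between groups compared. In lymph node it was 48.2% in PBS mice, where the library of mouse 1 had a median of 34%, and 19.2% in LPS mice. In brain it was 36.1% in LPS mice and 16.4% in PBS mice.

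Setting LPS beside PBS mice asks what the dose did to each chemokine in each tissue. Of 150 gene and tissue tests (limma on log2 of signal + 1, Benjamini-Hochberg adjusted p below 0.05 within the tissue over all genes), 78 were higher in LPS mice and 10 lower. Over all genes and tissues 9.47% of tests were higher and 10.4% lower. The median log2 change was 0.88 over the member tests. Each LPS library lay above each PBS library in 69 of the 150 and below each in 10. That separation was not counted over all genes, so 69 has no share to be set against. In 52 of the 78 higher tests the PBS group was at the shared level, and in 3, Ccl2, Ccl5 and Ccl12 in brain, both groups were. Since the tissues are mixtures, fewer cells of a type and less RNA per cell cannot be told apart.

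**Figure D1:**
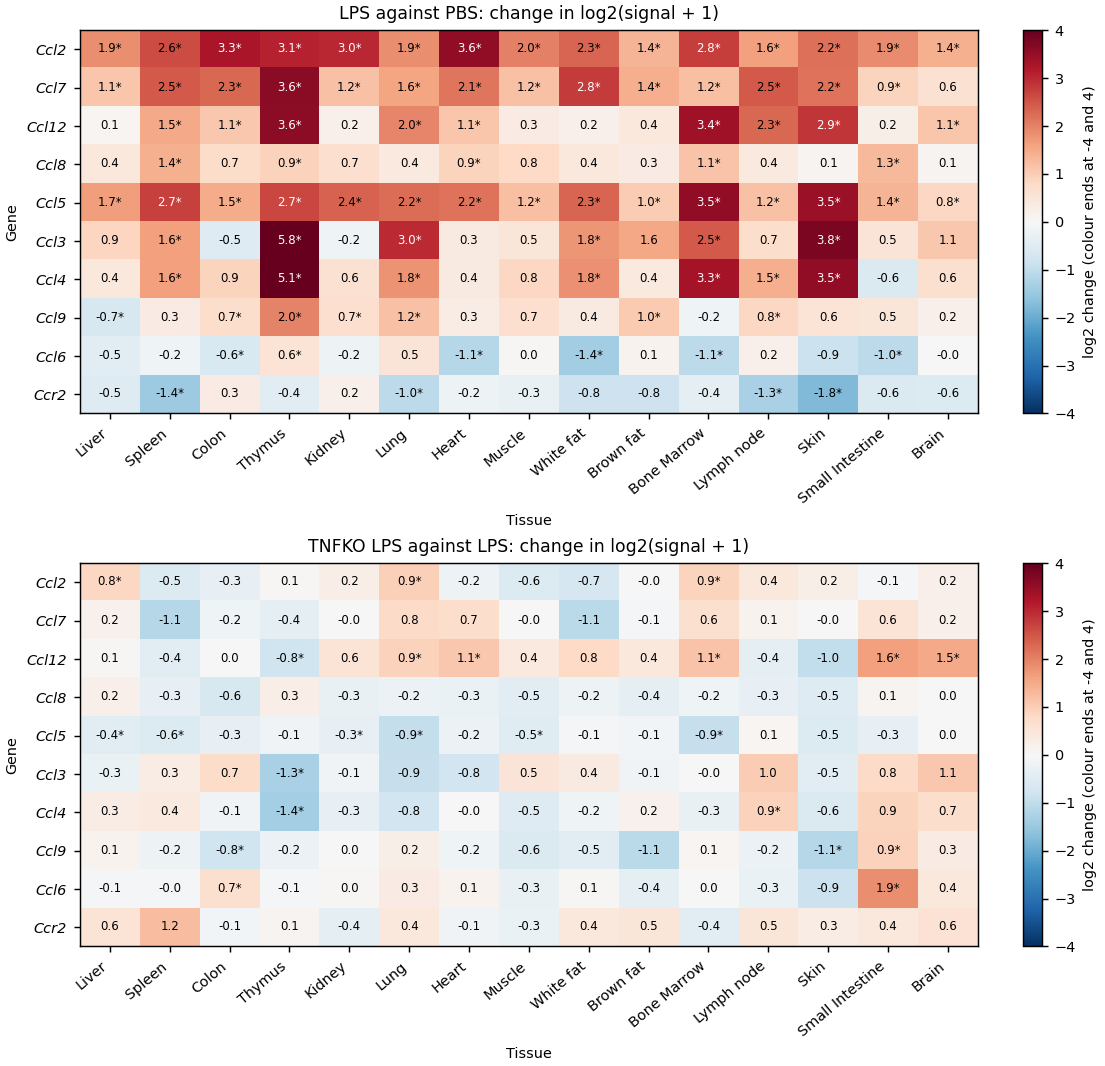
Change of each gene (rows) in each tissue (columns) as log2(signal + 1), for LPS against PBS (upper panel) and TNFKO LPS against LPS (lower panel), from 4 mice per group. Numbers are log2 changes and asterisks mark an adjusted p below 0.05. In the upper panel the Ccl2 and Ccl5 rows are called higher in 15 tissues and the Ccr2 row holds no higher call, and in the lower panel 23 squares are marked, 12 higher and 11 lower.

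Ccl2, the main monocyte attractant, was higher in LPS mice in 15 of 15 tissues, with log2 changes of 1.35 to 3.56. In heart the LPS libraries held signals of 236, 164, 294 and 289, against 17.0, 20.2, 19.1 and 21.3 in the PBS libraries. The lowest LPS heart lay far above the highest PBS heart (log2 change 3.56, SE 0.15, adjusted p = 6.6e-17). In colon the signals were 197, 134, 152 and 195 in LPS mice and 17.4, 20.1, 16.7 and 12.6 in PBS mice (log2 change 3.27). Thymus and kidney followed, with changes of 3.07 and 3.01. Brown fat and brain had the smallest changes, 1.35 and 1.41, and brain LPS libraries at 15.9, 16.2, 14.9 and 29.0 stayed at the shared level. The brain call was lost in 0 of 14 alternatives, which include subtraction of that level.

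Skin was the only tissue where Ccl2 libraries of the groups overlapped. LPS skins held 207, 96.1, 202 and 168, and PBS skins 106, 31.7, 16.0 and 24.5, where mouse 1 was the high one. That same PBS skin was also the highest for Ccl7 (169, against 17.3 to 62.0 in the other PBS skins) and for Ccl12 (56.2, against 7.05 to 18.1). The order of LPS tissues by Ccl2 ran from heart (246 ± 60.3, SD, n = 4) over white fat (183 ± 96.0), colon (169.6 ± 31.4) and skin (168 ± 51.2), and these neighbours overlapped.

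Ccl7, which acts with Ccl2 on Ccr2, was called higher in 14 of 15 tissues, by log2 changes of 0.88 to 3.60. Brain was the exception, at 7.68, 4.06, 3.55 and 9.66 in LPS mice and 6.44, 3.22, 1.35 and 4.20 in PBS mice (0.62, adjusted p = 0.41). Thymus showed the largest change, with means of 128 ± 16.4 in LPS mice and 9.88 ± 2.67 in PBS mice (SD, n = 4 each; 3.60, SE 0.17, adjusted p = 2e-22). White fat held 153, 49.6, 302 and 204 in LPS mice and 47.5, 28.9, 7.99 and 15.2 in PBS mice, so the LPS mice differed among themselves by several fold. The liver call was lost without mouse 8.

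Ccl5, which attracts T cells and monocytes, was higher in LPS mice in 15 of 15 tissues, and in each tissue all LPS libraries lay above all PBS libraries. Bone marrow had the largest change, with 1608, 998, 1585 and 1335 in LPS mice and 122, 119, 114 and 110.4 in PBS mice (log2 change 3.54, SE 0.13, adjusted p = 6.7e-16). Skin followed at 776, 520.0, 1021 and 1124 in LPS mice and 80.7, 70.3, 71.1 and 77.6 in PBS mice (3.45). Spleen reached the highest level, 2747, 1750.5, 2815 and 3026 in LPS mice, against 329.7, 400.3, 379 and 429 in PBS mice (2.72).

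Inguinal lymph node had the highest Ccl5 level in PBS mice, 759 ± 135 (SD, n = 4), all above spleen at 385 ± 41.9. Its change was among the smaller ones (1721 ± 303 in LPS mice, log2 1.18). The brain change was the smallest (0.83, with 109.7 ± 26.9 in LPS mice and 59.9 ± 5.56 in PBS mice), and it was lost when the shared level was subtracted. Ccl5 was the ligand with the highest mean in 13 tissues in TNFKO LPS mice, 15 in LPS mice and 9 in PBS mice, and Ccl6 was it in the others.

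**Figure D2:**
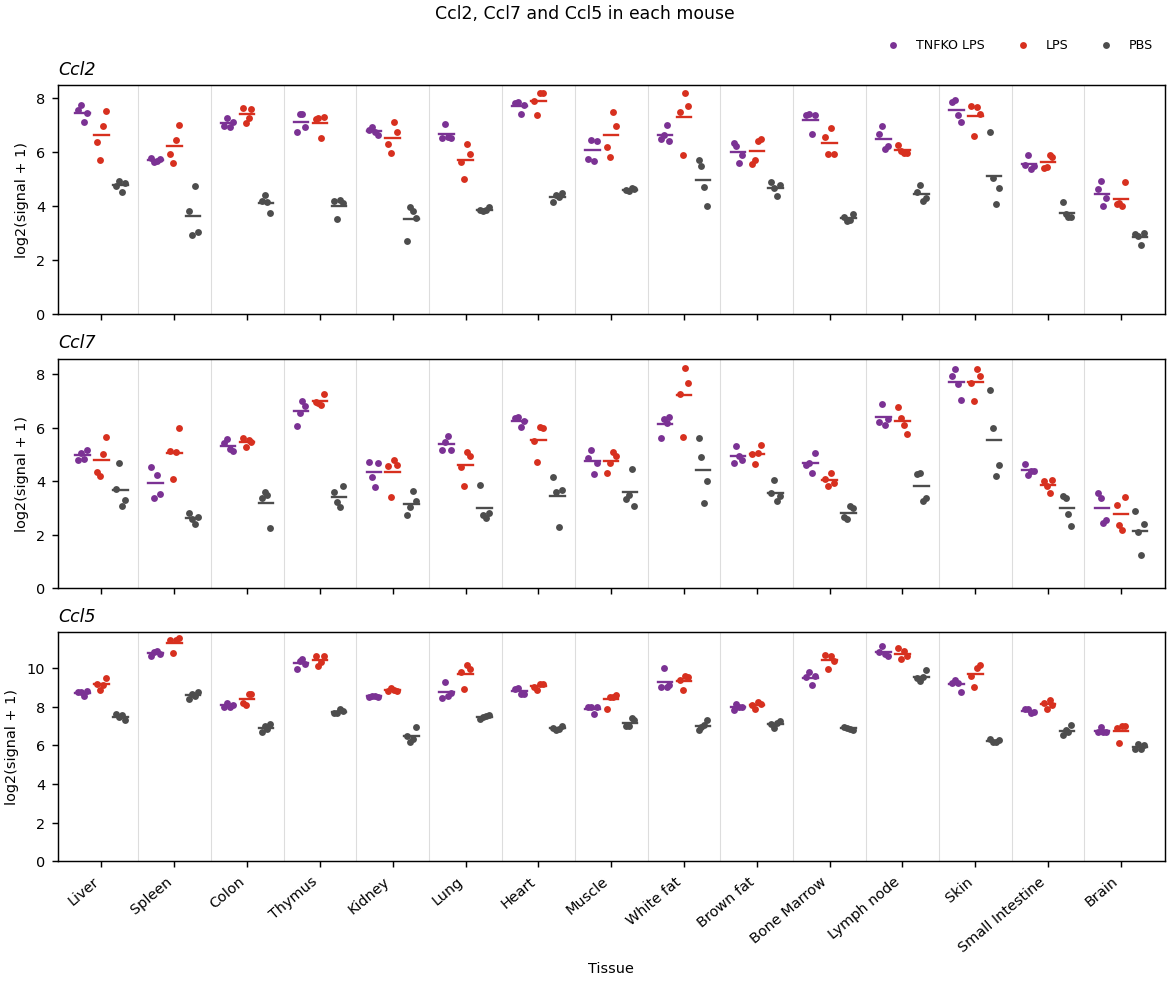
Signals of Ccl2, Ccl7 and Ccl5 in each mouse as log2(signal + 1), by tissue, with TNFKO LPS, LPS and PBS from left to right. Points are mice, 4 per group, and lines are group means. For Ccl5 the red points of LPS mice stand above the grey points of PBS mice in each of the 15 tissues.

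Ccl12, a Ccr2 ligand of the mouse, was called higher in 9 tissues, by log2 changes of 1.09 to 3.59, and its changes ran down to 0.07. Thymus held 161, 139, 182 and 203 in LPS mice and 20.6, 8.28, 11.5 and 15.1 in PBS mice (3.59, SE 0.17, adjusted p = 1.1e-22). Bone marrow held 53.5, 27.7, 79.8 and 50.5 in LPS mice and 1.31, 4.38, 6.94 and 4.68 in PBS mice (3.38). Lymph node had the highest levels, 361, 256, 179.9 and 156 in LPS mice against 62.8, 54.9, 39.7 and 30.9 in PBS mice (2.29).

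In liver the Ccl12 groups overlapped, with 10.2 ± 1.94 in LPS mice and 9.57 ± 1.19 in PBS mice (SD, n = 4 each; log2 change 0.07, adjusted p = 0.91). Its 6 tissues without a call were liver, kidney, muscle, both fats and small intestine. The brain call (1.10, adjusted p = 0.035) was lost without any 1 of mice 1, 3, 4, 5, 7 and 8 and with the shared level subtracted.

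Ccl8, in the mouse a ligand of Ccr8, rose in 5 tissues by log2 changes of 0.88 to 1.41. These were spleen (12.6 ± 1.40 in LPS mice and 4.49 ± 2.62 in PBS mice), small intestine (14.4 ± 5.42 and 5.21 ± 2.00), bone marrow, thymus and heart. The heart call was lost without mouse 1, 4, 7 or 8. Skin, the tissue with the most Ccl8 in all 3 groups, gave no call: it held 284, 128, 199.5 and 352 in LPS mice and 220.4, 139.8, 204 and 305 in PBS mice (0.10, adjusted p = 0.83).

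Ccl3 and Ccl4, neighbouring genes whose products draw monocytes and lymphocytes, had their largest changes in thymus. Ccl3 held 94.5, 129, 55.5 and 104 in LPS thymus and 0.859, 1.04, 0 and 1.08 in PBS thymus. The PBS thymus libraries held 3 Ccl3 counts in all and the LPS thymus libraries 418, a ratio of 136 after library size (95% exact interval 46.1 to 661, counting error only; log2 change 5.79, adjusted p = 1.1e-21). Ccl4 held 269, 283, 168 and 309 in LPS thymus and 6.01, 6.21, 5.32 and 7.56 in PBS thymus (5.12, SE 0.18, adjusted p = 3.4e-27). For both, all LPS thymus libraries stood above all LPS skin libraries, the next tissue in the order.

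Skin was second in the size of these changes. There Ccl3 held 38.8, 28.1, 33.0 and 8.64 in LPS mice and 1.36, 0.756, 0.641 and 0.681 in PBS mice (3.76, SE 0.37), and Ccl4 rose by 3.55. Both genes also rose in spleen, lung, white fat and bone marrow, and Ccl4 in lymph node (1.46). Ccl3 was called in 6 tissues and Ccl4 in 7. The Ccl3 call in spleen was lost without mouse 8, and that in white fat without mouse 1, 5 or 8.

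In thymus, 5 of 9 measured T and NK cell markers were lower and 1 higher in LPS mice, with summed levels of 1669 to 2020.3 in LPS mice and 2517 to 2745 in PBS mice. Macrophage markers there were higher for 5 of 10 (summed 469 to 574 in LPS mice and 373 to 419 in PBS mice). No marker of either list was at 0 in a group. Their part in the Ccl3 and Ccl4 changes was not tested. In lung, where Ccl3 rose by 2.97, 9 of 9 neutrophil markers rose (summed 4275 to 4853 in LPS mice and 427 to 484 in PBS mice), and their part was likewise not tested.

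**Figure D3:**
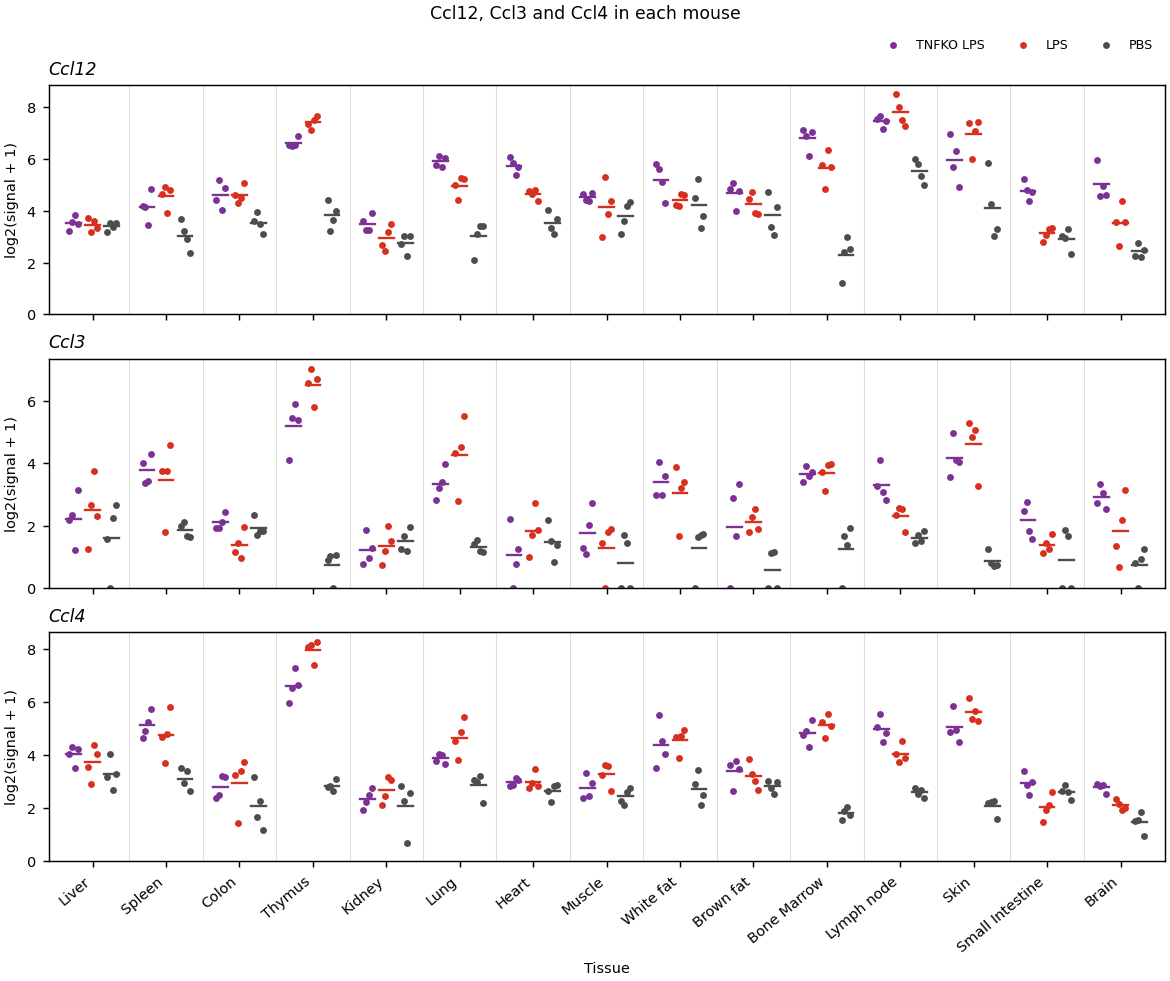
Signals of Ccl12, Ccl3 and Ccl4 in each mouse as log2(signal + 1), by tissue, with TNFKO LPS, LPS and PBS from left to right. Points are mice, 4 per group, and lines are group means. In thymus Ccl4 means are 103 in TNFKO LPS, 257 in LPS and 6.28 in PBS mice, and in small intestine only the TNFKO LPS points of Ccl12 stand apart from the others.

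Ccl9 and Ccl6 moved in both directions. Ccl9 rose in thymus (57.1, 43.1, 41.9 and 50.4 in LPS mice and 6.87, 12.4, 11.5 and 17.3 in PBS mice, log2 change 1.97, SE 0.21, adjusted p = 1.5e-10). It also rose in lung (1.17), brown fat (1.04), lymph node (0.82), colon (0.70) and kidney (0.67). The calls in colon, kidney, brown fat and lymph node were each lost without at least 2 of the mice, taken 1 at a time. In liver Ccl9 fell to 67.8 ± 16.3 in LPS mice, against 105 ± 18.0 in PBS mice, without overlap (SD, n = 4 each; log2 change -0.65, SE 0.18, adjusted p = 0.0076). Liver macrophage markers were lower for 6 of 10, with summed levels of 223 to 263 in LPS mice and 449.6 to 536 in PBS mice. Neutrophil markers there were higher for 4 of 9 and lower for none (742 to 887 in LPS mice and 498 to 694 in PBS mice). Classical monocyte markers were higher for 3 of 7 and lower for none (491 to 632 in LPS mice and 347 to 398 in PBS mice). The part of these cells in the Ccl9 fall was not tested.

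Ccl6 fell in 5 tissues and rose in 1. In white fat it held 60.0, 44.2, 50.6 and 59.8 in LPS mice and 161, 132, 130.1 and 149 in PBS mice (log2 change -1.40, SE 0.15, adjusted p = 2.1e-07). In bone marrow it held 98.1, 141, 118 and 117 in LPS mice and 236, 219.9, 248 and 280.2 in PBS mice (-1.05). Heart (-1.15), small intestine (-1.04) and colon (-0.62) were the other falls, and in all 5 the groups did not overlap. The rise in thymus (0.55) was lost without mouse 2, 3, 5, 6 or 8.

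Markers moved beside Ccl6 in part of these tissues. In white fat 6 of 10 macrophage markers were lower and 1 higher (summed 241 to 376 in LPS mice and 482 to 587 in PBS mice). Of the classical monocyte markers there, 3 of 7 were higher and 1 lower, and of the neutrophil markers 3 of 9 were higher and none lower. In bone marrow 7 of 9 neutrophil markers were lower (summed 13575 to 16317 in LPS mice and 19856 to 21218 in PBS mice). Classical monocyte markers in bone marrow went the other way, with 6 of 7 higher and none lower (6103 to 7549.5 in LPS mice and 3270.1 to 4252 in PBS mice). In small intestine 6 of 10 macrophage markers were higher and 1 lower (summed 274 to 329 in LPS mice and 215 to 233 in PBS mice), while Ccl6 was lower. Fibroblast markers were lower for 5 of 7 in white fat (summed 2819 to 5242 in LPS mice and 6566 to 7867 in PBS mice). In heart 4 of 7 fibroblast markers were lower and 1 higher (2013 to 2371 in LPS mice and 2018 to 2141 in PBS mice), and 3 of 10 macrophage markers lower and 1 higher (189.7 to 265 in LPS mice and 230.5 to 267 in PBS mice). In colon 3 of 7 fibroblast markers were lower and 1 higher (1142 to 1215 in LPS mice and 1452 to 1590.1 in PBS mice). Their part in the Ccl6 changes was not tested.

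Ccr2 was lower in LPS mice in 4 tissues and higher in none, where 9.47% of all tests were higher and 10.4% lower. In lung it held 12.4, 19.0, 10.8 and 16.0 in LPS mice and 27.6, 38.5, 31.5 and 25.4 in PBS mice (log2 change -1.04, SE 0.23, adjusted p = 8e-04). In lymph node it held 9.88, 14.4, 6.52 and 16.9 in LPS mice and 23.0, 29.5, 39.3 and 27.1 in PBS mice (-1.30). Skin had the largest change, with 28.6, 13.1, 9.30 and 10.8 in LPS mice and 58.5, 26.4, 53.8 and 75.6 in PBS mice (-1.77), and there the groups overlapped. In spleen the LPS libraries held 7.11, 4.89, 3.14 and 1.80, at the shared level, and the PBS libraries 19.2, 11.7, 7.52 and 12.6 (-1.44).

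Bone marrow, where monocytes are made, had the highest Ccr2 level in LPS and in PBS mice, and its change was not called (84.0 ± 13.9 in LPS mice and 111 ± 19.3 in PBS mice, -0.40, adjusted p = 0.057). The 7 markers of classical monocytes, a list without Ccr2, were counted in the same 4 tissues. In lung 5 of 7 rose and none fell, with summed levels of 1324 to 2078 in LPS mice and 729.9 to 1064 in PBS mice. In lymph node 5 of 7 rose (1311 to 1792 in LPS mice and 650.2 to 762 in PBS mice), and in spleen 4 of 7 (1279.6 to 1725 in LPS mice and 917 to 995 in PBS mice). In skin 3 rose and 1 fell (622 to 1153 in LPS mice and 388 to 692 in PBS mice). T and NK cell markers were lower for 7 of 9 in spleen (279 to 403 in LPS mice and 535 to 647 in PBS mice) and for 5 of 9 in lymph node, with 1 higher (740.1 to 819 in LPS mice and 944 to 1174 in PBS mice). Macrophage markers in spleen were lower for 6 of 10 and higher for 1 (496 to 818 in LPS mice and 1038 to 1237 in PBS mice). Fibroblast markers in skin were lower for 4 of 7 and higher for 1 (7350.1 to 11673 in LPS mice and 10924 to 16157 in PBS mice). No marker was at 0 in a group, and the part of these cells in the Ccr2 values was not tested.

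**Figure D4:**
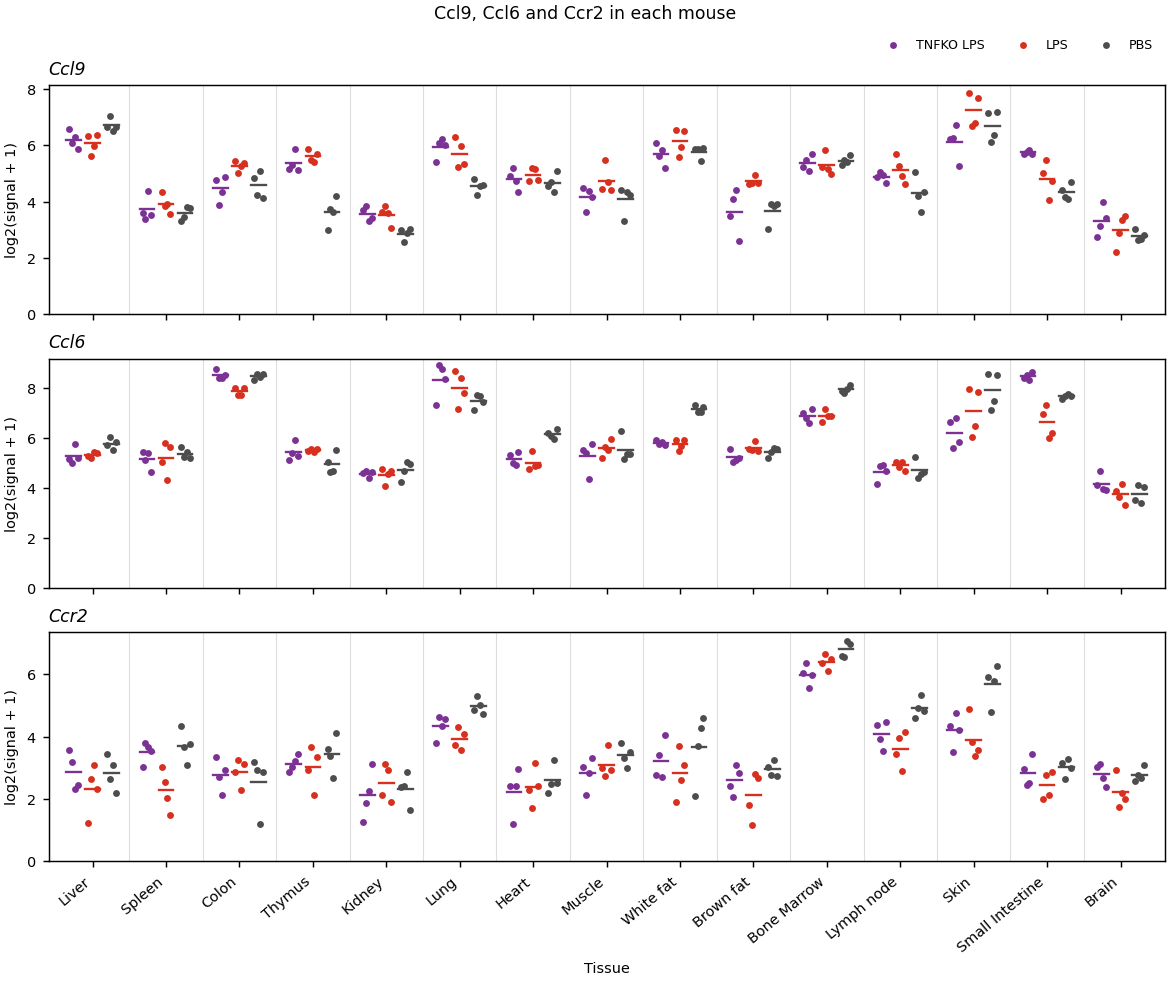
Signals of Ccl9, Ccl6 and Ccr2 in each mouse as log2(signal + 1), by tissue, with TNFKO LPS, LPS and PBS from left to right. Points are mice, 4 per group, and lines are group means. In small intestine Ccl6 means are 357 in TNFKO LPS, 105 in LPS and 203 in PBS mice, and Ccr2 is highest in bone marrow.

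By tissue, thymus had 9 of 10 genes higher in LPS mice, where 9.7% of all tested genes were higher. Spleen, lung and bone marrow had 7 each (8.04%, 11.7% and 10.6% of all genes), and lymph node and skin 6 each (9.97% and 9.45%). Colon, heart and white fat had 5 each (9.45%, 9.83% and 7.49%), and kidney, brown fat and small intestine 4 each (16.2%, 9.09% and 9.92%). Liver, muscle and brain had 3 each (11.6%, 6.72% and 2.32%). The summed ligand signal was 1994 to 2619 in LPS thymus and 286 to 349 in PBS thymus, and 121 to 210.1 in LPS brain and 86.2 to 109 in PBS brain.

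Whether the LPS change differed among tissues was tested in a single limma model of all libraries, by an F test on 14 differences between tissues. All 10 genes passed, where 65.3% of all genes did, so the share is no mark of these genes. The adjusted p was lowest for Ccl5 (1.7e-32), Ccl4 (7.3e-25), Ccl12 (9.6e-17) and Ccl3 (2e-16), and highest for Ccl8 (0.027) and Ccr2 (0.013).

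The comparison of TNFKO LPS with LPS mice asks how the genotypes differ after the same dose. Of 150 tests 12 were higher and 11 lower in TNFKO LPS mice, with a median log2 change of -0.04. Over all genes and tissues 3.24% of tests were higher and 2.32% lower. The LPS mice enter this comparison and the one with PBS mice, so the 2 sets of changes are not independent. Of the 23 calls, 12 were kept under each alternative run. Among the LPS mice, mouse 6 had the lowest signal in 74 of 150 gene and tissue pairs, and without it the lower calls numbered 20 and not 11. The count moved the other way as well, to 6 without mouse 8 and 7 without mouse 11. It was 18 with edgeR on counts and 5 with the shared level subtracted.

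Ccl5 was the member with the most lower calls, 6 tissues by log2 changes of -0.95 to -0.33, and it was higher in none. Bone marrow held 732, 883, 549 and 758 in TNFKO LPS mice and 1608, 998, 1585 and 1335 in LPS mice (-0.91, SE 0.13, adjusted p = 7.8e-05), with no overlap. Lung held 353, 613, 372 and 422 in TNFKO LPS mice and 891, 474, 1154 and 977 in LPS mice (-0.95), where LPS mouse 6, at 474, lay within the TNFKO LPS range. Spleen held 1565, 1788, 1896 and 1693 in TNFKO LPS mice and 2747, 1750.5, 2815 and 3026 in LPS mice (-0.55). Mouse 6 was again the LPS mouse inside the other group. In spleen 4 of 9 neutrophil markers were higher (summed 1921 to 2469 in TNFKO LPS mice and 940.5 to 2039 in LPS mice), as were 4 of 6 B cell markers (1449 to 1631 in TNFKO LPS mice and 878 to 1362 in LPS mice), and none was lower. Their part in the Ccl5 difference was not tested. The smaller changes in liver, kidney and muscle were lost under 3, 9 and 9 of 14 alternatives.

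Ccl12 was the member with the most higher calls, 5 tissues, and was lower in thymus. Small intestine held 36.7, 26.6, 19.7 and 25.3 in TNFKO LPS mice and 6.02, 7.48, 8.84 and 9.21 in LPS mice (log2 change 1.64, SE 0.24, adjusted p = 0.00017). The LPS level there was at the shared level, as it was in brain, and PBS mice held 7.08, 6.82, 8.79 and 4.03. Brain held 62.0, 23.0, 30.4 and 23.7 in TNFKO LPS mice and 10.8, 5.22, 19.9 and 10.9 in LPS mice (1.51, adjusted p = 0.013), a call lost without mouse 8 and with the shared level subtracted. Heart held 66.2, 56.4, 40.7 and 50.4 in TNFKO LPS mice and 26.3, 23.9, 27.1 and 20.1 in LPS mice (1.09).

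In bone marrow Ccl12 held 139, 118, 68.8 and 129.8 in TNFKO LPS mice and 53.5, 27.7, 79.8 and 50.5 in LPS mice (1.14), while in thymus it held 92.4, 90.5, 91.7 and 117 in TNFKO LPS mice and 161, 139, 182 and 203 in LPS mice (-0.80, adjusted p = 0.0015). The thymus call was lost with the shared level subtracted. Leaving out mouse 8, 9 or 12 ended the bone marrow call. The lung call (0.93) ended without mouse 5, 10 or 12 and with the shared level subtracted.

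Ccl2 was higher in TNFKO LPS mice in 3 tissues. Lung held 92.1, 130.1, 93.5 and 90.6 in TNFKO LPS mice and 48.4, 30.8, 78.7 and 60.8 in LPS mice (log2 change 0.94, SE 0.20, adjusted p = 0.0044), without overlap. Bone marrow held 167, 168, 101 and 164 in TNFKO LPS mice and 93.3, 59.7, 118 and 59.5 in LPS mice (0.89). Liver held 187, 211, 138 and 173 in TNFKO LPS mice and 81.7, 51.7, 123 and 181 in LPS mice (0.82), a call lost under 6 of 14 alternatives. In lung and in bone marrow, Ccl5 was lower and Ccl2 and Ccl12 were higher in the same TNFKO LPS libraries. Beside these, 3 of 7 endothelial markers were higher in lung (summed 3364 to 3767 in TNFKO LPS mice and 2855 to 2998 in LPS mice) and 3 of 6 B cell markers in bone marrow (667 to 935 in TNFKO LPS mice and 496 to 758 in LPS mice). Classical monocyte markers were lower for 1 of 7 and higher for none, in lung and in bone marrow alike. Macrophage markers were lower for 2 of 10 and higher for 1 in bone marrow, and none was called in lung. The part of these cells was not tested.

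Ccl3 and Ccl4 were lower in the thymus of TNFKO LPS mice. Ccl4 held 61.9, 91.4, 156 and 101 in TNFKO LPS mice and 269, 283, 168 and 309 in LPS mice (log2 change -1.36, SE 0.18, adjusted p = 5.9e-07). Ccl3 held 16.1, 43.0, 59.3 and 41.6 in TNFKO LPS mice and 94.5, 129, 55.5 and 104 in LPS mice (-1.31). Both stayed far above the PBS thymus. T and NK cell markers were higher for 7 of 9 in TNFKO LPS thymus (summed 2599 to 2824 in TNFKO LPS mice and 1669 to 2020.3 in LPS mice). Classical monocyte markers there were higher for 3 of 7 and lower for none (769.7 to 844 in TNFKO LPS mice and 588 to 671 in LPS mice). The part of these cells in the Ccl3 and Ccl4 differences was not tested. In lymph node Ccl4 was higher, at 32.4, 45.9, 21.5 and 28.0 in TNFKO LPS mice and 15.6, 12.5, 22.6 and 13.9 in LPS mice (0.92), a call lost under 7 of 14 alternatives.

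Ccl6 had the largest change of this comparison, in small intestine: 342, 363, 322 and 402 in TNFKO LPS mice and 125, 158, 63.2 and 72.5 in LPS mice (log2 change 1.86, SE 0.19, adjusted p = 1.8e-06). The TNFKO LPS level was also above that of PBS mice, 189, 205, 214 and 202 (0.81, adjusted p = 0.0045). Colon held 429.8, 339.9, 333 and 364 in TNFKO LPS mice and 257, 213, 209 and 252 in LPS mice (0.65), and PBS mice held 322, 379, 349.6 and 378. Macrophage markers in small intestine were higher for 1 of 10 and lower for 1 of 10 (summed 303 to 353 in TNFKO LPS mice and 274 to 329 in LPS mice). Fibroblast markers there were higher for 4 of 7 and lower for none (938 to 1172 in TNFKO LPS mice and 729 to 812 in LPS mice), beside the Ccl6, Ccl9 and Ccl12 calls of that tissue, and their part was not tested.

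Ccl9 was higher in the small intestine, at 50.4, 53.1, 56.1 and 51.0 in TNFKO LPS mice and 31.3, 43.1, 15.6 and 25.9 in LPS mice (0.92, adjusted p = 0.011). It was lower in colon (-0.80, adjusted p = 0.049) and skin (-1.13, adjusted p = 0.04), calls lost under 9 and 6 of 14 alternatives. Ccl7, Ccl8 and Ccr2 were called in no tissue, with log2 changes of -1.15 to 0.78, -0.63 to 0.26 and -0.41 to 1.23. The nearest was Ccl7 in spleen, at 22.3, 9.41, 17.7 and 10.6 in TNFKO LPS mice and 33.8, 15.9, 33.0 and 63.1 in LPS mice (adjusted p = 0.053).

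Whether the difference between genotypes varied among tissues was tested by the same F. It passed for 8 of 10 genes, where 25.6% of all genes passed, and not for Ccl8 (adjusted p = 0.72) and Ccr2 (adjusted p = 0.31). Ccl6 (6.4e-07) and Ccl12 (2.1e-06) had the lowest adjusted p, and Ccl3 the highest of those that passed (0.046), a call lost with a pseudocount of 0.25.

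Set against PBS mice, the TNFKO LPS mice had 81 of 150 tests higher and 7 lower, where 6.71% of all tests were higher and 6.13% lower. In 56 of the 81 higher tests the PBS group was at the shared level. Ccl2 and Ccl5 were higher in 15 tissues each, by log2 changes of 1.33 to 3.65 and 0.72 to 2.90, and Ccl7 in 14. Ccl12 was higher in 10 tissues, by up to 4.51 in bone marrow (139, 118, 68.8 and 129.8 in TNFKO LPS mice and 1.31, 4.38, 6.94 and 4.68 in PBS mice). The Ccl5 call in brain, where both groups were at the shared level, was lost with that level subtracted. Ccl3 was called in 9 tissues and Ccl4 in 8. Of these, Ccl3 in small intestine was lost under 8 of 14 alternatives, and Ccl4 in lung and in brain without mouse 4. Ccr2 was lower in bone marrow (63.6 ± 14.8 in TNFKO LPS mice and 111 ± 19.3 in PBS mice, -0.81), lymph node (-0.84) and skin (-1.48). The lymph node call was lost under 6 of 14 alternatives, with an adjusted p of up to 0.13.

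In brain Ccl3 was at 5.64, 9.21, 7.36 and 4.86 in TNFKO LPS brains and 0.757, 0, 0.898 and 1.40 in PBS brains (log2 change 2.17, adjusted p = 0.003). The LPS brains held 1.54, 0.580, 3.55 and 7.85, and neither TNFKO LPS against LPS (1.09, adjusted p = 0.2) nor LPS against PBS (1.08, adjusted p = 0.16) was called. Ccl4 was at 6.66, 6.14, 6.38 and 4.86 in TNFKO LPS brains and 1.89, 1.93, 2.69 and 0.934 in PBS brains (1.32), with the LPS brains at 2.84 to 4.10. Neither TNFKO LPS against LPS (0.69, adjusted p = 0.25) nor LPS against PBS (0.63, adjusted p = 0.27) was called for Ccl4. Over the 4 libraries of a group these signals rest on 40 Ccl3 counts in TNFKO LPS, 22 in LPS and 7 in PBS brains, and on 38 Ccl4 counts in TNFKO LPS, 23 in LPS and 19 in PBS brains.

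Ccl6 was lower in the skin of TNFKO LPS mice, at 98.3, 47.0, 111 and 55.9, against 380.0, 139, 176 and 371 in PBS mice (log2 change -1.71, adjusted p = 0.004). The LPS skins, at 247, 64.1, 87.4 and 227, overlapped both groups. Fibroblast markers in skin were lower for 5 of 7 (summed 4448 to 9926 in TNFKO LPS mice and 10924 to 16157 in PBS mice) and macrophage markers for 4 of 10, with none higher (256 to 556 in TNFKO LPS mice and 413 to 1136 in PBS mice). In lung Ccl6 was higher in TNFKO LPS mice, at 158, 478, 437 and 331, against 139, 209.7, 205 and 171 in PBS mice (0.85), with overlap, a call lost under 6 of 14 alternatives (adjusted p up to 0.13). Neutrophil markers in lung were higher for 9 of 9 (summed 4212 to 6747 in TNFKO LPS mice and 427 to 484 in PBS mice). Classical monocyte markers there were higher for 7 of 7 (1267 to 2642 in TNFKO LPS mice and 729.9 to 1064 in PBS mice). Macrophage markers in lung were higher for 5 of 10 and lower for none (284 to 447 in TNFKO LPS mice and 201 to 267 in PBS mice). The part of these cells in the Ccl6 values of skin and lung was not tested.

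The tissues can also be ordered by level within each group. Ccl8 was highest in skin, then in lymph node and white fat, and all skins lay above all lymph nodes in each group. Ccl7 was highest in skin (215 ± 67.7 in TNFKO LPS mice, 217 ± 70.9 in LPS mice and 67.8 ± 70.1 in PBS mice, SD, n = 4 each) and lowest in brain. Skin overlapped with white fat, the next tissue for Ccl7, in LPS and in PBS mice. Ccl12 was highest in lymph node (176 ± 24.2 in TNFKO LPS mice, 238 ± 92.4 in LPS mice and 47.1 ± 14.4 in PBS mice). Lymph node overlapped with thymus in LPS mice and with skin in PBS mice. In PBS mice Ccl7 was at the shared level in 13 tissues and Ccl12 in 11. Ccl9 was highest in liver in TNFKO LPS mice (73.8 ± 15.7) and in skin in LPS mice (162 ± 65.9) and PBS mice (108 ± 39.3), and skin and liver overlapped in TNFKO LPS and PBS mice. Ccl6 was highest in colon in TNFKO LPS mice (367 ± 44.2) and PBS mice (357 ± 27.1) and in lung in LPS mice (279 ± 121), where lung and colon overlapped.

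**Figure D5:**
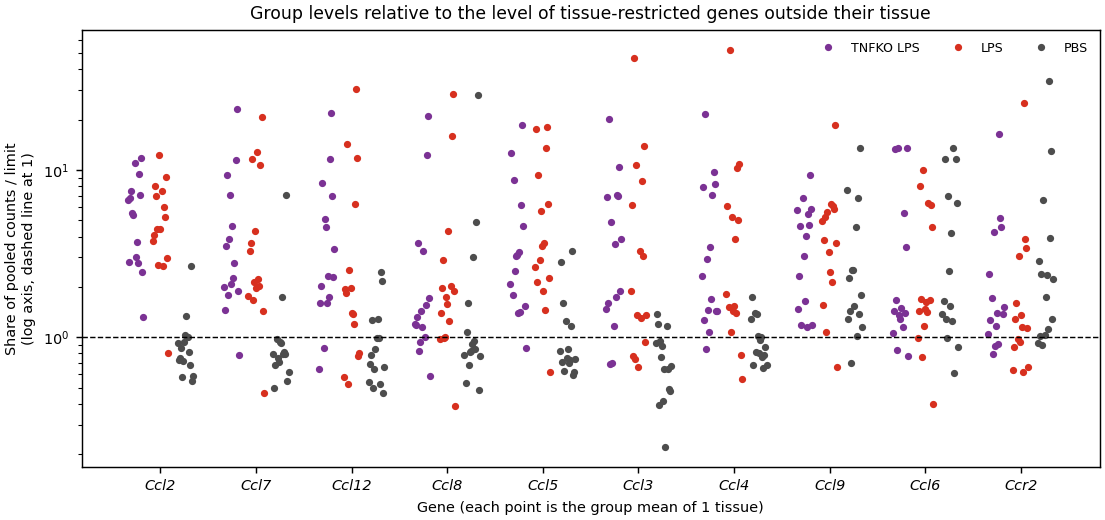
Share of a gene in the counts of a group, relative to its share in all pooled counts, divided by the limit that 9 in 10 tissue-restricted genes keep to outside their tissue (log axis), with TNFKO LPS, LPS and PBS from left to right for each gene. Each point is 1 tissue, and points on or under the dashed line are at the shared level, as for Ccl7 in 1 tissue of TNFKO LPS mice, 1 of LPS mice and 13 of PBS mice.

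Among other CC receptors and decoys, Ackr1, an endothelial and red cell receptor that binds chemokines without signalling, was higher in LPS mice in 10 tissues and lower in bone marrow (14.9 in LPS mice and 35.4 in PBS mice, log2 change -1.20). Its largest change was in lung (31.4, 19.0, 42.5 and 31.2 in LPS mice and 5.01, 1.89, 3.86 and 7.26 in PBS mice, 2.59). Ccrl2, which holds chemerin at the cell surface, rose in 7 tissues. Ccr1, a receptor of Ccl3, Ccl5, Ccl6 and Ccl9, rose in 3, with lung at a mean of 45.0 in LPS mice and 7.68 in PBS mice. Ackr2, a scavenger of CC chemokines, rose in 1, the lung (means of 56.2 in LPS mice and 32.7 in PBS mice). Ccr3, a receptor of eosinophils, fell in bone marrow (6.03, 14.9, 6.61 and 8.09 in LPS mice and 36.1, 37.7, 35.8 and 32.3 in PBS mice, -1.96) and spleen (-3.25).

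The other ligands measured, Ccl11, Ccl17 and Ccl22, were higher in LPS mice in 14 of 45 tests and lower in none. For all genes 9.47% of tests were higher and 10.4% lower. Between TNFKO LPS and LPS mice 7 of 45 were lower and none higher, where 2.32% of all tests were lower and 3.24% higher. Ccl17 and Ccl22, which draw T cells through Ccr4, were lower in thymus and lung, as in thymus for Ccl22 (means of 49.9 in TNFKO LPS mice and 109 in LPS mice, log2 change -1.07). Ccl11, which draws eosinophils through Ccr3, was lower in lung, heart and muscle, and muscle held means of 15.1 in TNFKO LPS mice, 56.3 in LPS mice and 28.1 in PBS mice.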

How the data were processed

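The authors deposited gene tables named for CPM whose values are a signal scaled to an effective library size (sums of 703690 to 1603067 per library). Per the submitters' processing notes, FastQC, MultiQC, edgeR and mm10 were used, and the sources used here do not name the aligner. Per the labels' protocols, priming was from the poly(A) tail and primers held molecular identifiers. Whether these were collapsed is not stated, so intervals cover counting error only. Whole counts were recovered from the signal (100% of values within 0.1 counts). Replicate pairs all differed by more than counting error (chi-squared per degree of freedom 1.15 to 9.63).

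For each tissue, genes reaching a signal of 1 in 4 or more of 12 libraries were fitted on log2(signal + 1) over the 3 groups with limma 3.58.1 (trend, 9 residual degrees of freedom, R 4.3.3). The log2 changes understate those of low genes. P-values were adjusted by Benjamini-Hochberg within tissue and comparison over all genes, with a threshold of 0.05, and differences among tissues by a moderated F over 45 groups. Labels pair tissues by mouse: deviations of tissues of 1 mouse had a median correlation of 0.02, against -0.00 between mice. Alternatives were a pseudocount of 0.25, no filter, median-of-ratios rescaling, 2 groups only, each mouse left out, the quasi-likelihood test of edgeR 4.0.16 on recovered counts, mouse as a block in the F and, added after seeing the data, subtraction of the shared level. The genes named were all 10 members, other CC genes from a list, of which 1 is not reported here, and the 5 genes most like Ccl2, Ccl5 and Ccr2 over the 45 group means. The members and lists were chosen with earlier results of these data known. Nothing says that samples of a group came from separate experiments, and each is 1 mouse.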

Additional observations from a re-analysis of the deposited data

Results flagged for a closer look

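The LPS change differed among tissues for all 10 genes by the moderated F (adjusted p of 1.7e-32 for Ccl5, 7.3e-25 for Ccl4, 9.6e-17 for Ccl12, 2e-16 for Ccl3, 1.4e-08 for Ccl6, 1.4e-07 for Ccl2, 4.7e-07 for Ccl7, 1.7e-06 for Ccl9, 0.013 for Ccr2 and 0.027 for Ccl8). The difference between TNFKO LPS and LPS mice varied among tissues for 8 genes (6.4e-07 for Ccl6, 2.1e-06 for Ccl12, 0.00015 for Ccl9, 0.0012 for Ccl4, 0.0012 for Ccl5, 0.0036 for Ccl2, 0.022 for Ccl7 and 0.046 for Ccl3).

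A single mouse stood apart from the other members of its group in 20 of 450 groups (4.44%), by a gap past Dixon's critical value for 4 samples, where chance alone gives about 1 in 20. Among TNFKO LPS mice these were mouse 10 for Ccl2 in lung (130.1), Ccl5 in white fat (1010.1) and Ccl5 in brain (123), mouse 11 for Ccl2 in bone marrow (101), Ccl5 in muscle (194) and Ccl9 in spleen (19.7), and mouse 12 for Ccl12 in thymus (117). Among LPS mice they were mouse 6 for Ccl5 in brain (69.5), mouse 7 for Ccl2 in thymus (91.7) and Ccl9 in brown fat (29.7), and mouse 8 for Ccl2 in brain (29.0) and Ccl8 in muscle (25.5). Among PBS mice they were mouse 1 for Ccl3 in white fat (0) and skin (1.36), Ccl6 in muscle (76.7), Ccl7 in lung (13.4) and Ccl9 in brown fat (7.21), mouse 3 for Ccl9 in white fat (42.2), and mouse 4 for Ccl4 in skin (2.04) and Ccl8 in spleen (8.41).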

How the results depend on the processing

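No call of a member reversed under the alternatives run. Of 88 calls for LPS against PBS, 77 held under each of them, as did 12 of 23 for TNFKO LPS against LPS and 75 of 88 for TNFKO LPS against PBS. With each mouse left out in turn, LPS against PBS gave 71 to 78 higher and 10 to 12 lower calls, TNFKO LPS against LPS 8 to 13 higher and 6 to 20 lower, and TNFKO LPS against PBS 76 to 80 higher and 6 to 8 lower. The 20 lower calls came without mouse 6, the 6 without mouse 8, and 7 without mouse 11. The 11 lower calls for TNFKO LPS against LPS became 18 with edgeR on the recovered counts and 5 with the shared level subtracted, and the cause was not tested. Other settings gave 77 to 81 higher calls for LPS against PBS. With mouse as a replicate block, 10 genes passed the F for LPS against PBS and 8 for TNFKO LPS against LPS, as without it. No paired analysis was possible within a tissue because the groups compared share no mouse. Signals of a few units rest on few counts.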

Other observations

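Over the 45 tissue and group means (genes with a mean log2(signal + 1) of at least 3), the genes whose pattern was most like that of Ccl5 were Serpina3g (Pearson r = 0.92), Mx1 (0.91), Gbp9 (0.91), Phf11b (0.90) and Tap1 (0.90). For Ccl2 they were Socs3 (0.82), Timp1 (0.82), Irgm2 (0.81), Gbp2 (0.81) and Stat3 (0.80). For Ccr2 they were Ear2 (0.84), Alox5ap (0.83), Cxcr2 (0.79), Nfam1 (0.77) and Stag2 (0.77). These correlations describe the means, which share libraries and mice, and were not tested.

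LPS mouse 6 had the lowest of 4 LPS signals in 13 of 15 tissues for Ccl5, 10 for Ccl7, 9 for Ccl2 and 9 for Ccl12, and in 4 for Ccr2. Of the 150 gene and tissue pairs it was lowest in 74, against 27, 26 and 23 for mice 5, 7 and 8. Among the TNFKO LPS mice, mouse 10 was highest in 59 of 150 pairs, including 11 of 15 tissues for Ccl2 and 11 for Ccl5, and mouse 11 was lowest in 52, including 9 tissues for Ccl2 and 9 for Ccl12. In inguinal lymph node, the PBS library of mouse 1 held tissue-restricted genes of other tissues at 34% of their pooled share, where the median of the 4 PBS libraries was 11.9%.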
